A study of Homo sapiens with 4 samples.

Results

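Nucleosomes were examined at the promoters of 8 receptor genes of the neurotrophin and GDNF families, out of 20163 protein-coding genes in the annotation. The genes were taken by name as NTRK2, NTRK3, NGFR, SORT1, RET, GFRA1, GFRA2 and GFRA3, by a rule that used no measured value. They were grouped as receptors held down by MYCN. Nucleosome maps hold no transcript levels, so that description could not be checked here, and the genes are called the 8 receptor genes. The cells were BE(2)C, an established human neuroblastoma line with amplified MYCN (cell line BE2C in the labels, genotype wild type). The control group (ctrl, 2 libraries) had received a control siRNA and the knockdown group (N-myc kd, 2 libraries) an siRNA against MYCN. Both were transfected with Lipofectamine 2000 for 6 h, with 80 nM siRNA by the labels, while the methods of the study state a lower final concentration. By the same methods, medium with serum was added after these 6 h and the cells were collected on the following day. Micrococcal nuclease had cut the DNA between nucleosomes, and each library is a list of called nucleosomes with a read count and a fuzziness, the spread in bp of read midpoints around the called centre, or dyad. The labels do not say that replicates came from separate cultures, so p-values measure only the spread between these libraries.

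NTRK2 (TrkB) and NTRK3 (TrkC) are receptor tyrosine kinases for BDNF and neurotrophin-3. NGFR encodes the p75 neurotrophin receptor, which binds all mature neurotrophins and their proforms, and SORT1 encodes sortilin, a sorting receptor that joins p75 in binding the proforms. RET is the signalling kinase of the GDNF family, and it is engaged through the coreceptors GFRA1, GFRA2 and GFRA3, which prefer GDNF, neurturin and artemin. In the sympathoadrenal lineage, from which neuroblastoma arises, these receptors govern survival, differentiation and death. MYCN with its partner MAX binds the E-box CACGTG, whereas SP1 binds the GC box GGGCGG. At many promoters the stretch just upstream of the transcription start site (TSS) is kept free of nucleosomes.

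The sequences upstream of the TSS are shown first, because the GC boxes in them lie in the window that was scored for nucleosomes. They were read from GRCh37 in the direction of transcription, with GGGCGG and its reverse complement CCGCCC in capitals. The RET stretch (chr10:43572317-43572511, plus strand) ends 6 bases before the canonical TSS, where another RET transcript begins, and the SORT1 stretch (chr1:109940541-109940740, minus strand) and the GFRA3 stretch (chr5:137610311-137610510, minus strand) end at the base before the TSS. These 3 lie outside annotated transcripts. A shorter NTRK2 stretch (chr9:87284444-87284498, plus strand) is shown as the member without a GC box in the window. It lies within the NTRK2 gene, downstream of its most upstream annotated start.
RET: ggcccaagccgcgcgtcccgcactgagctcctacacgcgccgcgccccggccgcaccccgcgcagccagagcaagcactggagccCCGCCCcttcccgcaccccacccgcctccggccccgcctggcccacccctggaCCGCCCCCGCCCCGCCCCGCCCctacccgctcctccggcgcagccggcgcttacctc
SORT1: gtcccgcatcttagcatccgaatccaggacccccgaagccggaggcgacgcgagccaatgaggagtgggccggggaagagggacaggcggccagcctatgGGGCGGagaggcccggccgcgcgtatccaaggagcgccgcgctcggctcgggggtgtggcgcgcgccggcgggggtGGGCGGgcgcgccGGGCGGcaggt
GFRA3: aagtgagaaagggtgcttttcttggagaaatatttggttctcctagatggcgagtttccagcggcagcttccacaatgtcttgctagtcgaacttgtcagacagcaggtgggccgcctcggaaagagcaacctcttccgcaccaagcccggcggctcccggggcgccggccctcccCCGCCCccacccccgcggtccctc
NTRK2: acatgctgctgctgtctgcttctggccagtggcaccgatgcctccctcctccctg

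The E-box CACGTG, which is its own reverse complement, was absent from the 1 kb around the TSS in all 8 receptor genes, while 18.3% of all 20163 promoters held it there. Over the 2 kb before and the 1 kb after the TSS it was present in 2 of 8, GFRA2 and GFRA3, against 36.8% of all promoters. No match says only that these letters are not in the window. The GFRA3 E-box lies in intron 1, at +666 to +671 from the TSS (shown with 15 bases on each side, chr5:137609624-137609659, minus strand, E-box in capitals).
GFRA3 E-box: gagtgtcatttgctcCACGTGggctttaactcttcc

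GC boxes, counted on both strands with overlapping matches, were present within 500 bp of the TSS in 8 of 8 receptor genes, against 76.5% of all promoters, with a median of 5 against 3. RET held 10, SORT1 held 9 and NGFR held 8, whereas NTRK2 held 1. The median GC content of the same 1 kb was 66.3% for the receptor genes and 61.2% over all promoters, and the ratio of observed to expected CpG was 0.86 against 0.723. RET was richest in GC, at 76.9%, followed by SORT1 at 74.3% and NGFR at 70.0%. Base composition affects both MNase cutting and amplification, and its part in the levels was not tested.

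The 4 libraries held 10527010 to 12178724 nucleosomes and 147370973 to 242544884 reads in them. Replicate 2 was deeper in both groups, with a median of 18 reads per nucleosome against 12 in replicate 1. Nucleosomes under 6 reads had been left out of the lists, and the minimum is reached more easily in replicate 2. Dyads of the same library were at least 147 bp apart, so called nucleosomes did not overlap. A place without a nucleosome is thus one with fewer than 6 reads assigned, or one too near to another call. The region around MYCN, measured within 250 kb, had on average 42.7 times the reads of the median 10-kb bin. By library this was 50.1 in ctrl 1 and N-myc kd 1, 35.2 in ctrl 2 and 35.3 in N-myc kd 2. The largest read count of a nucleosome was 1764 in all 4 libraries.

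No receptor promoter passed the test for a change in occupancy upon MYCN knockdown. Occupancy was the sum of reads in nucleosomes with a dyad in the promoter, taken as the 2 kb before and the 1 kb after the TSS. In edgeR's quasi-likelihood test with Benjamini-Hochberg adjustment, 0 of 20106 promoters were called (percent called 0), and DESeq2 also called 0. At an unadjusted p under 0.05 edgeR had 634 promoters (3.15%) and DESeq2 had 210, and none of these was a receptor gene in either tool (0 genes). The adjusted p was 0.999 for each of the 8. Of the receptor genes, 3 had a positive and 5 a negative log2 change. The median was -0.04, against -6.8e-05 over all promoters, and the median absolute log2 change was 0.11 against 0.10.

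Of the neurotrophin receptors, NTRK2 (ENSG00000148053.18_12, chromosome 9, 87283290 to 87710666, plus strand, TSS 87284644) had the largest positive change of the 8. Its promoter held 187 reads in ctrl 1, 338 in ctrl 2, 243 in N-myc kd 1 and 348 in N-myc kd 2. As RPM, the reads per 1000000 reads in called nucleosomes of that library, this was 1.27 and 1.39 in ctrl against 1.65 and 1.46 in N-myc kd, so both knockdown libraries lay above both controls. The log2 change was 0.23 ± 0.14 (SE, n = 2 per group), with an unadjusted p of 0.103 in edgeR, at percentile 92.6 of all promoters. With 1 library left out it ranged from 0.14 (without N-myc kd 1) to 0.34 (without N-myc kd 2). Measured at the most upstream annotated start, which lies 1354 bp upstream, the log2 change was -0.02.

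NTRK3 (ENSG00000140538.17_12, chromosome 15, 88402982 to 88800022, minus strand, TSS 88799970) held 190 and 280 reads in ctrl against 185 and 263 in N-myc kd. Its RPM, 1.29 and 1.15 against 1.26 and 1.10, overlapped between groups, with a log2 change of -0.03 ± 0.14 (SE). NGFR (ENSG00000064300.9_8, chromosome 17, 47572655 to 47592370, plus strand, TSS 47572655) held 250 and 350 reads in ctrl against 230 and 364 in N-myc kd. Its RPM of 1.69 and 1.44 in ctrl enclosed the 1.56 and 1.52 of N-myc kd, and the log2 change was 0.01 ± 0.14 (SE). SORT1 (ENSG00000134243.12_11, chromosome 1, 109852190 to 109940540, minus strand, TSS 109940540) held 196 and 277 reads in ctrl against 147 and 266 in N-myc kd. Here both knockdown libraries, at 0.998 and 1.11 RPM, lay below the controls at 1.33 and 1.14. The log2 change of SORT1 was -0.18 ± 0.14 (SE), with an unadjusted p of 0.215 in edgeR.

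Among the GDNF family receptors, RET (ENSG00000165731.21_15, chromosome 10, 43572512 to 43625799, plus strand, TSS 43572517) held 140 and 254 reads in ctrl against 136 and 208 in N-myc kd. Its knockdown libraries, at 0.923 and 0.869 RPM, were both below the controls at 0.948 and 1.05, with a log2 change of -0.14 ± 0.16 (SE). GFRA1 (ENSG00000151892.16_13, chromosome 10, 117816436 to 118036315, minus strand, TSS 118032718) held 170 and 227 reads in ctrl against 162 and 253 in N-myc kd. The groups overlapped in RPM, and its log2 change was 0.09 ± 0.15 (SE). GFRA2 (ENSG00000168546.11_8, chromosome 8, 21547910 to 21669869, minus strand, TSS 21646387) held 164 and 273 reads against 144 and 272, with a log2 change of -0.04 ± 0.15 (SE). GFRA3 (ENSG00000146013.11_11, chromosome 5, 137588069 to 137610310, minus strand, TSS 137610310) held 230 and 296 reads against 198 and 266, with a log2 change of -0.15 ± 0.15 (SE). Both coreceptors overlapped between groups, and within each group of GFRA3 replicate 1 was higher than replicate 2, at 1.56 and 1.22 RPM in ctrl against 1.34 and 1.11 in N-myc kd. In all, the groups did not overlap in 3 of 8 receptor genes, NTRK2 upward and SORT1 and RET downward. Over all promoters 31% did not overlap, 11.9% upward and 19.1% downward, so the count was near the background.

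**Figure D1:**
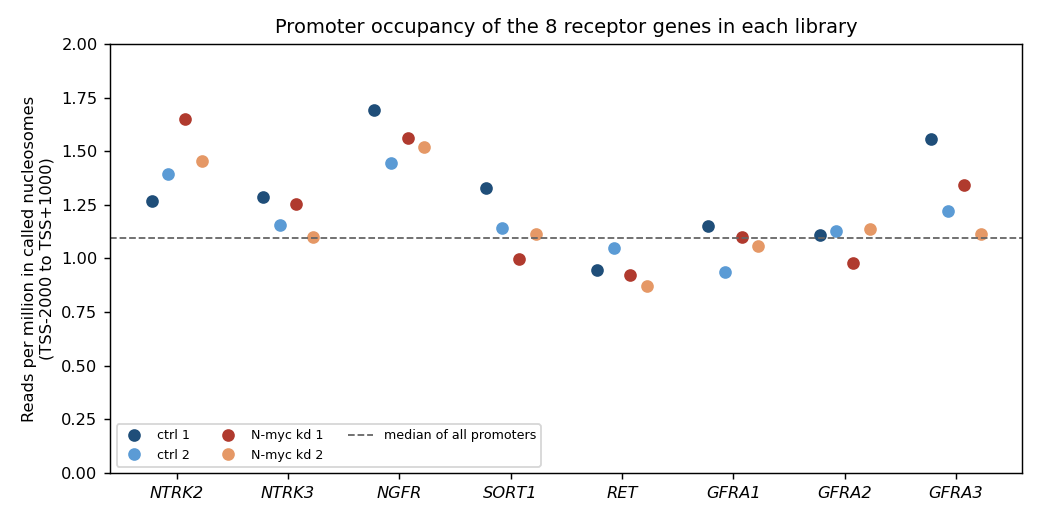
Promoter occupancy of the 8 receptor genes, as RPM in the 2 kb before and the 1 kb after the TSS (vertical axis, genes along the horizontal axis), 1 point per library, with the median of all promoters as a dashed line at 1.095. The knockdown points lie above both control points in NTRK2 (1.65 and 1.46 against 1.27 and 1.39) and below them in SORT1 and RET, and the groups overlap in the other genes.

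The 8 promoters also differed from each other in level. The mean over the 4 libraries was highest in NGFR, at 1.55 RPM, and lowest in RET, at 0.947 RPM, around a median of 1.095 for all promoters. Copy number is unequal along the chromosomes of such a line, so each level was set beside its surroundings, the reads within 250 kb but outside the 4 kb around the TSS. Relative to the median 10-kb bin, those surroundings were at 1.48 for NTRK3, 1.44 for SORT1, 1.43 for NGFR and 1.23 for NTRK2. They were at 1.15 for GFRA2, 1.13 for RET, 1.06 for GFRA3 and 0.920 for GFRA1. Divided by its surroundings, GFRA3 was highest at 1.19 and SORT1 lowest at 0.761, with NTRK3 at 0.777 and RET at 0.805, while the median of all promoters was 0.936. The order of the genes thus depended on whether the surroundings were taken into account, and whether copy number set them was not tested.

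RET was the 1 receptor gene whose window around the TSS, from 200 bp before it to 50 bp after it, was free of nucleosomes in all 4 libraries. A window was free when no nucleosome lay at least 80% inside it. Over 20079 promoters, 32.3% were free in all 4. NTRK3, GFRA2 and GFRA3 held a nucleosome in the window in every library, as did 19.9% of all promoters. At the most upstream annotated start of GFRA2 the window was free in all 4 libraries. With the minimum of reads scaled to depth (10 in ctrl 2 and in N-myc kd 2), the NTRK3 window was free in those libraries. Counted by library, 2 of 8 receptor windows were free in control replicate 1, 2 in control replicate 2, 4 in knockdown replicate 1 and 2 in knockdown replicate 2. The shares over all promoters were 58.4%, 52.6%, 60.3% and 52.1%. With the minimum scaled to depth the counts in the same order were 2, 4, 4 and 4 of 8, against 58.4%, 61.5%, 60.3% and 61.3%.

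**Figure D2:**
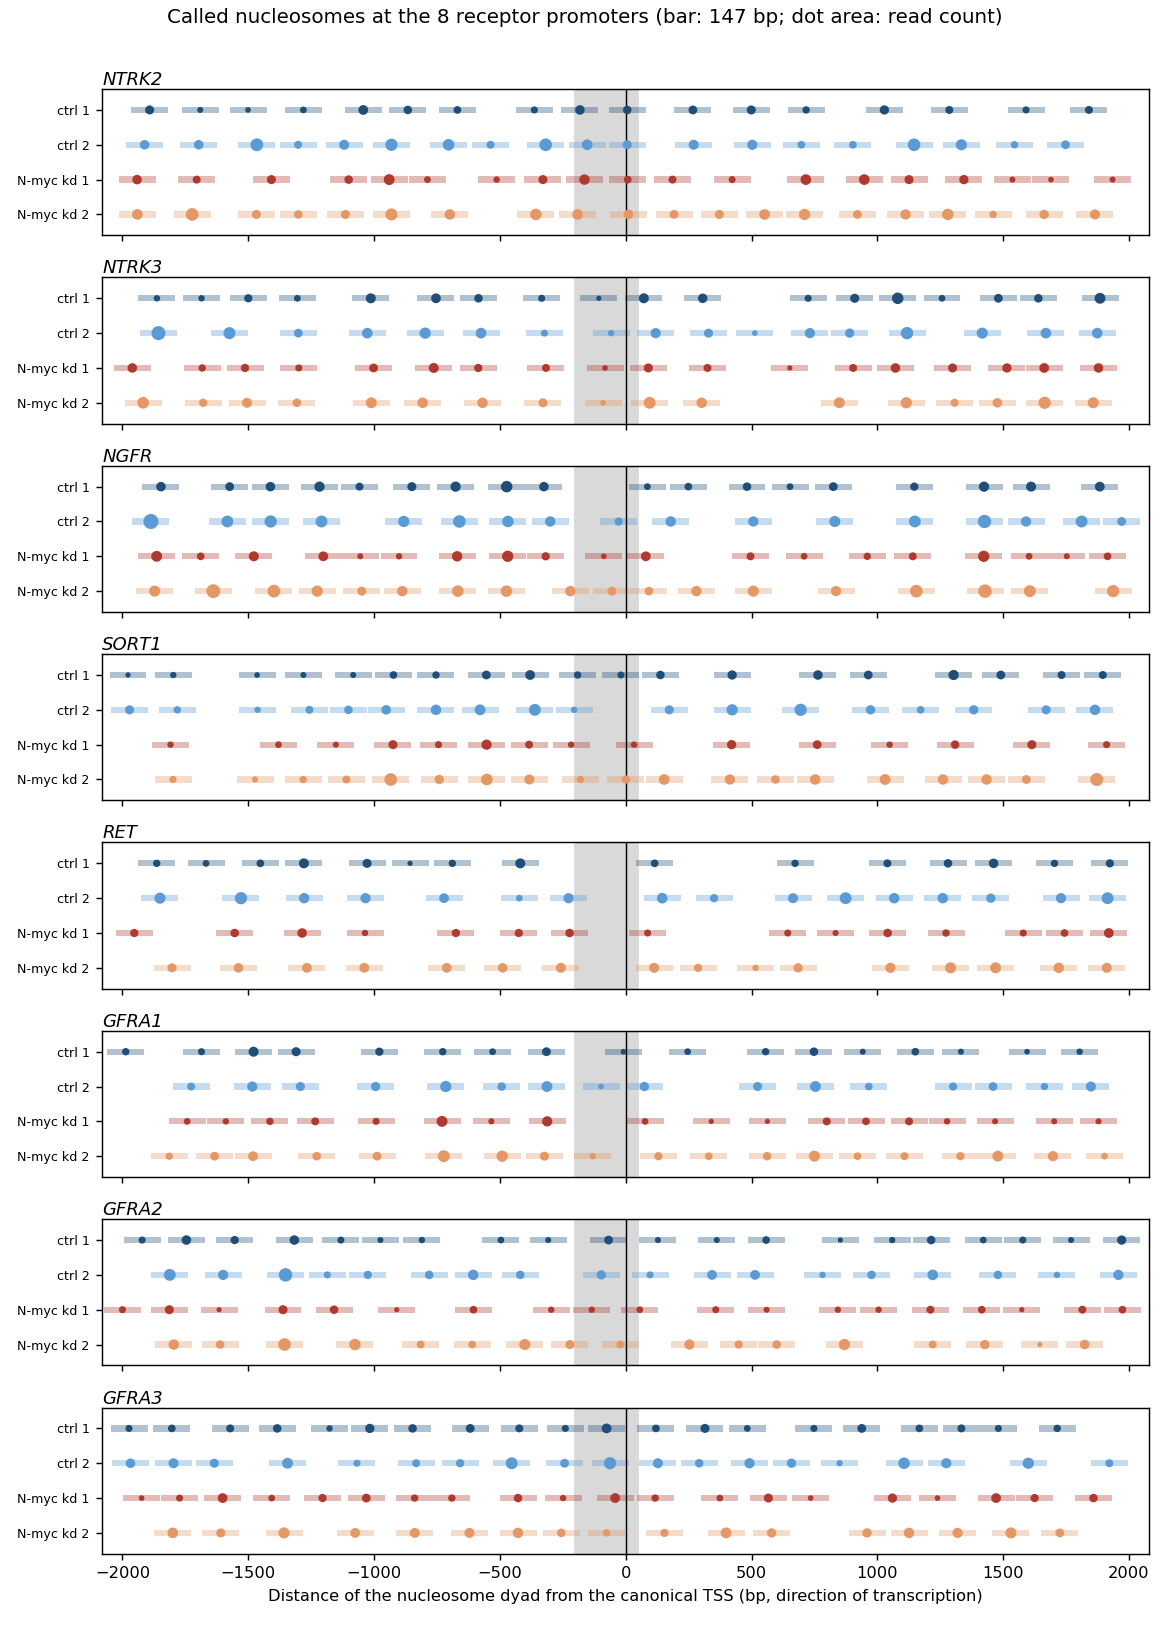
Called nucleosomes at the 8 receptor promoters in each library, plotted by distance of the dyad from the canonical TSS in bp, with bars of 147 bp and dots whose area grows with the read count. The grey band is the window from -200 to +50, in which RET has no nucleosome at least 80% inside in any of the 4 libraries while GFRA3 holds a nucleosome of 12 to 33 reads in it.

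At RET the nearest nucleosome downstream had its dyad at +115 and +145 in ctrl 1 and 2 and at +87 and +113 in N-myc kd 1 and 2, with 13, 25, 11 and 22 reads. It lay within exon 1, which is 263 bp long. Upstream, a nucleosome at -227, -223 and -258 was called in ctrl 2, N-myc kd 1 and N-myc kd 2, with 23, 16 and 22 reads. The ctrl 1 library had none there, and its nearest one was at -419 with 22 reads. The dyads on either side of the start were therefore 534 bp apart in ctrl 1, 372 bp in ctrl 2, 310 bp in N-myc kd 1 and 371 bp in N-myc kd 2. In both groups the RET start lay in a gap between an upstream and a downstream nucleosome.

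The RET stretch printed above holds 5 GC boxes, centred from -112.5 to -43.5, and none of them lay in a nucleosome in any library. Within 500 bp of the TSS, nucleosomes covered 2 and 3 of 10 RET boxes in ctrl against 2 and 4 in N-myc kd. NGFR differed by library, with 1 and 7 of 8 boxes covered in ctrl against 6 and 8 in N-myc kd. Control replicate 1 alone had no nucleosome over the cluster of boxes just upstream of the NGFR start. SORT1 had 8 and 6 of 9 boxes covered in ctrl against 6 and 8 in N-myc kd. The boxes of NTRK3, which number 3, and the 1 box of NTRK2 were covered in all 4 libraries. GFRA3 had 4 and 4 of 5 covered in ctrl against 4 and 3 in N-myc kd. The groups did not overlap in GFRA2, with 5 and 4 of 5 against 2 and 2, and in GFRA1, with 1 and 1 of 2 against 0 and 0. The share of all promoters with such a separation was not computed, and the difference was not tested. Over the 43 boxes of the 8 genes, 58.1% and 67.4% were covered in ctrl against 55.8% and 67.4% in N-myc kd. The shares for the 70308 boxes of all promoters, 48.4%, 52.1%, 46.4% and 52.3%, were lower in each library. Cover of all bases in the same 1 kb was also higher at the receptor genes, at 61.8%, 64.3%, 61.1% and 69.6%, against 55%, 59.7%, 54.2% and 59.8% over all promoters.

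**Figure D3:**
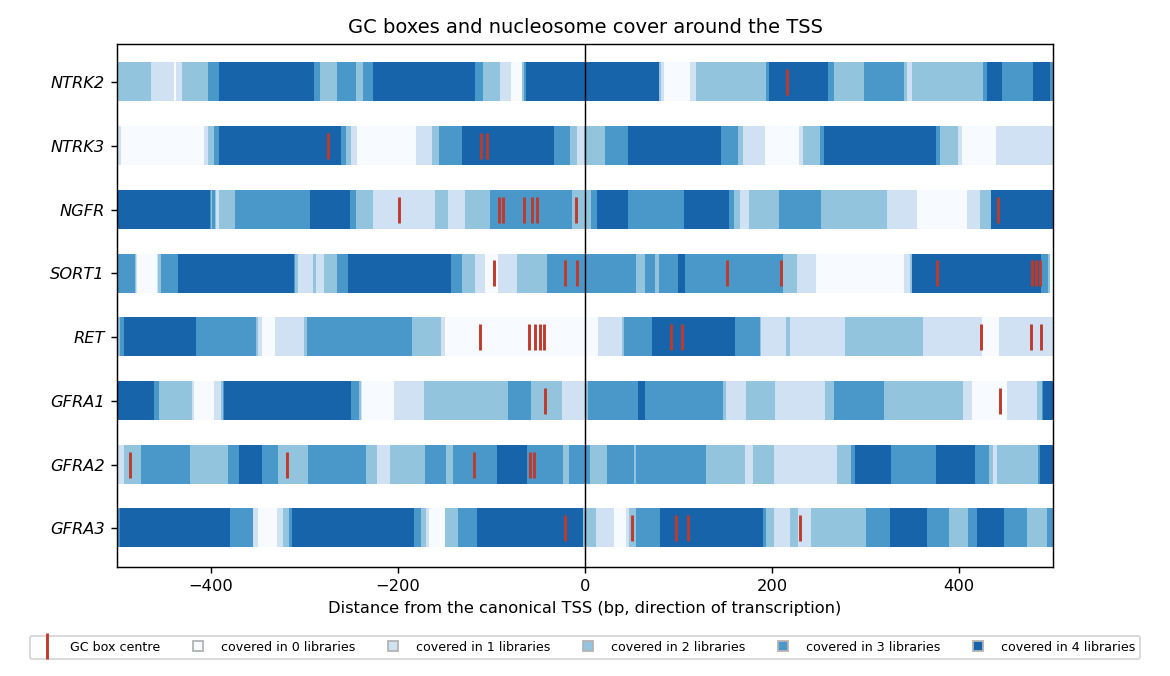
Nucleosome cover within 500 bp of the canonical TSS of the 8 receptor genes, shaded by the number of libraries (0 to 4) in which a called nucleosome of 147 bp covers each base, with the centres of GC boxes as red marks. The 5 RET boxes between -112.5 and -43.5 stand in bases covered in 0 libraries, and the NGFR boxes in the same stretch stand mostly in bases covered in 3.

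By the 80% rule, NTRK2 was the 1 receptor gene whose window changed in both libraries of a group. It held 1 nucleosome with 16 reads and 2 nucleosomes with 43 reads in ctrl, and 0 nucleosomes in both N-myc kd libraries. Over all promoters 2.41% changed in this direction and 2.21% in the opposite direction, in which 0 of 8 receptor windows changed. A nucleosome sat on the NTRK2 TSS in all 4 libraries. Its dyad was at +6 and +6 in ctrl and at +8 and +11 in N-myc kd, a range of 5 bp, with 16, 18, 13 and 21 reads. The dyads at +8 and +11 put it past the 80% limit. In ctrl 2 a second nucleosome, at -153 with 25 reads, also lay at least 80% inside, and its counterparts at -182 in ctrl 1 and at -164 and -191 in N-myc kd did not. With a limit of 50% the window was occupied in all 4 libraries.

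Downstream of it the NTRK2 map did differ by group. The next nucleosome was at +267 and +270 in ctrl, with 17 and 22 reads, and at +186 and +192 in N-myc kd, with 14 and 17 reads. All 4 dyads lie in intron 1, and the knockdown nucleosomes reach into exon 1, which is 160 bp long. Of 190 nucleosome positions at the 8 receptor promoters, 5 (2.63%) were present in both controls and neither knockdown library, and 6 (3.16%) the other way. The background over 459058 positions of all promoters was 2.66% and 2.69%, so the shares at the receptor genes were near the background. NTRK2 accounted for 3 of these 11, chosen for description after their values were seen.

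In the other windows the nucleosomes were supported by few reads or varied within groups. NTRK3 carried a weak nucleosome centred near -84, with 6 and 9 reads in ctrl against 7 and 7 in N-myc kd, next to a stronger one near +94 with 22, 23, 18 and 31 reads. The counts of the first were at or near the minimum for a call. GFRA3 had a better supported nucleosome in the window, with 21 and 33 reads in ctrl against 21 and 12 in N-myc kd, at -76, -62, -42 and -76. GFRA2 held 17 and 19 reads in ctrl against 9 and 14 in N-myc kd, but its dyads ranged from -135 to -21. The GFRA1 window held 7 and 7 reads in ctrl against 0 and 9 in N-myc kd. That of NGFR held 0 and 15 reads in ctrl against 7 and 17 in N-myc kd. For SORT1 the window held 11 and 0 reads in ctrl against 0 and 15 in N-myc kd. A difference between groups was not detectable at this depth in these 3 windows, which were free in some libraries and not in others of the same group.

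Away from the window, several receptor genes carried nucleosomes whose place hardly moved between libraries. NGFR had one at -471 with a range of 6 bp and 29, 29, 28 and 29 reads, and one at +1425 in intron 1 with a range of 5 bp and 23, 39, 28 and 40 reads. SORT1 had one at +420 in intron 1 with a range of 9 bp and 19, 28, 19 and 23 reads. NTRK3 had one at -1303 with a range of 8 bp and 10, 17, 11 and 16 reads. Both groups thus had these 4 nucleosomes at the same place. Of the 190 positions, 88 (46.3%) were found in all 4 libraries, against 40.2% over all promoters. The dyads were within 10 bp in 6 of these 88 (6.82%), and the share over all promoters was 6.97%. Among the 8 genes NTRK3 had the highest share, with 70% of its positions in all 4 libraries (percentile 96.5), and GFRA2 the lowest, with 25% (percentile 15.1).

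The widest distance between neighbouring dyads within 1 kb of the TSS was 558 and 372 bp in ctrl and 557 and 371 bp in N-myc kd at RET. The same-numbered RET libraries thus differed by 1 bp, and the replicates of a group by far more. These were not the same gap. In ctrl 1 and N-myc kd 1 it lay downstream of the TSS, from +115 to +673 and from +87 to +644. In ctrl 2 and N-myc kd 2 it spanned the TSS, from -227 to +145 and from -258 to +113. At GFRA3 the widest distance was 265 and 210 bp in ctrl against 263 and 379 bp in N-myc kd, and at NTRK3 419 and 265 bp against 327 and 547 bp. GFRA2, with 314 and 322 bp against 309 and 274 bp, was the 1 receptor gene whose groups did not overlap. These were 4 different gaps, from -810 to -496 and -419 to -97 in ctrl and from -605 to -296 and -21 to +253 in N-myc kd, and with the minimum of reads scaled to depth ctrl 2 was at 463 bp. At NTRK2, NTRK3, NGFR, SORT1, GFRA1 and GFRA3 the widest distance also lay at different places in different libraries. Over all promoters 13.6% were lower in both knockdown libraries and 14.6% higher. By exact permutation (two-sided, n = 2 per group) p was 0.3333 for GFRA2, the smallest value that the design allows, and 0.6667 or 1 for the others.

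Fuzziness of the receptor promoters did not pass the test either. The mean over nucleosomes within 2 kb of the TSS, weighted by reads, lay between 32.4 and 38.3 bp in the 8 genes and 4 libraries. The difference between knockdown and control ran from -2.47 bp in GFRA2 to 0.75 bp in NTRK3, each with an SE of 1.95 bp. In limma with Benjamini-Hochberg adjustment, 1 of 20026 promoters was called (0.00499%), and 0 of the 8 receptor genes, none of which had an unadjusted p under 0.05 either. GFRA2 was at 36.4 and 34.4 bp in ctrl and at 33.0 and 32.8 bp in N-myc kd, with an unadjusted p of 0.205 in limma. The median difference of the 8 was -0.47 bp, against -0.05 bp over all promoters.

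Single nucleosomes were also paired between libraries, where each was the closest to the other and both overlapped by more than 30 bp. At the receptor promoters 10.6% of nucleosomes had no partner when ctrl 1 was set against ctrl 2, and 10.1% when N-myc kd 1 was set against N-myc kd 2. For libraries of different groups the share was 12.9% and 10.3% with equal replicate numbers, and 11.5% and 11.3% with unequal ones. The mean between groups exceeded that within groups by 1.14 percentage points. Over all promoters this difference was -0.658 percentage points. Pairs within a group always joined replicate 1 with the deeper replicate 2, whereas equal-numbered pairs joined libraries of like depth. Over all promoters the share without a partner was 14.8% and 14.7% within groups and 14.8% and 14.7% with unequal numbers. With equal numbers it was 15.3% for replicate 1 and 11.6% for replicate 2. The part of depth in the difference was not tested. Leaving out 1 library at a time gave 0.315 (without N-myc kd 1) to 2.06 (without ctrl 2) for the receptor genes. For all promoters it gave -1.62 to 0.335, with a positive sign without ctrl 2 and without N-myc kd 2, where it was 0.195. Nucleosomes in exactly the same place made up 0% to 2.12% of the receptor nucleosomes in the 6 pairs of libraries. These pairs share libraries and were not tested.

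The rest of the pathway was read from 3 lists. None of the 8 ligand genes was called, 5 had a positive and 3 a negative log2 change, and the median was 0.02. PSPN, which encodes persephin, was at 0.14 and BDNF, the ligand of TrkB, at -0.27, neither with an unadjusted p under 0.05 in edgeR. BDNF held 100 and 141 reads in ctrl against 61 and 142 in N-myc kd, and the low library was N-myc kd 1. Among 9 other receptors and coreceptors, 0 were called, 4 had a positive and 5 a negative log2 change, and the median was -0.07. GFRAL, the receptor of GDF15, was at 0.24 and SORCS2, a relative of sortilin, at -0.18.

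Of 21 adaptors and effectors, 0 were called, with 9 positive and 12 negative log2 changes and a median of -0.04. DOK6, an adaptor that binds RET, was at 0.33, with 57 and 128 reads in ctrl against 80 and 142 in N-myc kd. BEX3, which binds the p75 receptor, was at -0.57, with 79 and 129 reads in ctrl against 18 and 131 in N-myc kd. Again N-myc kd 1 alone was low. Unadjusted p-values under 0.05 in edgeR were found for FRS3, an adaptor of the FRS2 family that docks to Trk receptors, at -0.44 (p 0.00392), and PLCG1, the phospholipase C gamma that binds activated Trk receptors, at -0.29 (p 0.0484). The adjusted p was 0.999 for both in edgeR. They were 2 of 21 genes of this list, and the ligands and the other receptors had 0 each, while 3.15% of all promoters were under this limit. FRS3 held 180 and 316 reads in ctrl against 145 and 205 in N-myc kd, and PLCG1 held 239 and 328 against 180 and 276.

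**Figure D4:**
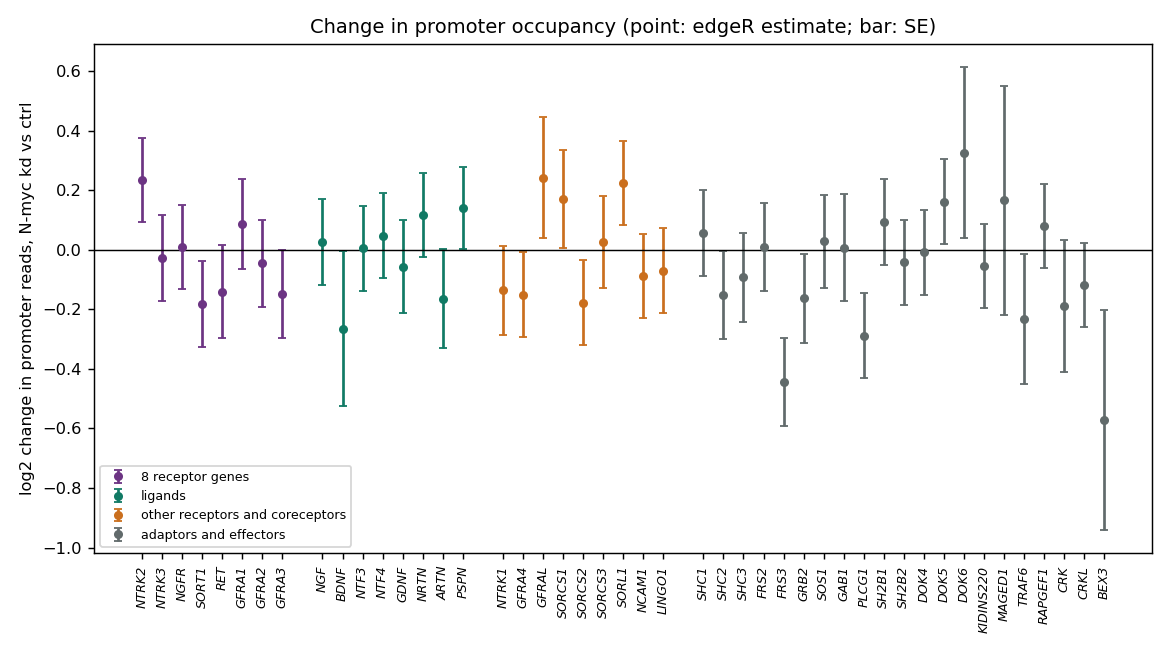
Log2 change in promoter reads between N-myc kd and ctrl in edgeR's fit across all promoters, for the 8 receptor genes and the 3 pathway lists, with points for the estimate and bars for its SE. The 8 receptor genes lie between -0.18 and 0.23, and BEX3, at -0.57, has the lowest value and a wide bar.

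The read profiles of the 8 promoters were compared with each other and with all promoters. Over 80 bins of 50 bp and the mean of the 4 libraries, Pearson's r between 2 receptor genes was at most 0.225, for GFRA2 and GFRA3. The closest of 20101 promoters was ACOT7 for RET (r 0.676), SWT1 for SORT1 (r 0.647), UMOD for NTRK3 (r 0.595) and SYT15B for GFRA3 (r 0.591). It was SLC9A3 for GFRA1 (r 0.581), SOS1 for NTRK2 (r 0.579), TMEM176B for GFRA2 (r 0.567) and KCNJ8 for NGFR (r 0.56). These are the highest of many and describe the profiles only. These values stand beside the r between libraries of the same gene, which was 0.221 to 0.676 for RET, -0.0711 to 0.447 for GFRA2 and 0.0963 to 0.231 for GFRA3. It was 0.0016 to 0.525 for NTRK2, and between 0.195 and 0.626 for NTRK3, NGFR, SORT1 and GFRA1. The highest r with another receptor gene lay within the own range for NTRK2 (0.123), GFRA2 and GFRA3 (both 0.225). It lay below the own range for RET (0.137), NTRK3 (0.0952), NGFR (0.0357), SORT1 (0.123) and GFRA1 (0.112). The r between genes used the mean of the 4 libraries and the own r single libraries, so they are unlike measures. Whether the profiles of the genes differ was not tested.

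The E-boxes lay among these nucleosomes in both groups. The GFRA2 E-box, at -798 to -793, was covered by a nucleosome with 9 and 16 reads in control replicates 1 and 2 and with 14 reads in knockdown replicate 2. Knockdown replicate 1 had none over it. The GFRA3 E-box in intron 1 was covered in control replicate 2, with 19 reads, and in knockdown replicate 1, with 7 reads, and in neither of the others. Cover of either site did not follow the group.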

How the data were processed

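MNase-seq of BE(2)C cells gave 4 libraries, grouped and numbered by their titles. Per the submitters' processing notes, CASAVA 1.9, Trim Galore 0.4.4 and Bowtie2 2.2.4 were used on hg19. By the methods of the study, proper pairs of good mapping quality were kept, duplicates removed with Samtools and nucleosomes called with Genetrack (versions not given in the sources used here). The study pooled replicates in its further analysis, whereas the deposited lists are 1 per library. Each deposited count is the number of read-pair midpoints assigned to a nucleosome of 147 bp, and the authors dropped nucleosomes under 6 reads. The study calls occupancy normalized, but the deposited counts were whole and their totals differed, so they were taken as unscaled. The deposited fuzziness is the SD of midpoints in bp.

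The canonical TSS came from GENCODE on GRCh37. Promoter counts with a mean of at least 10 reads were tested across all genes with edgeR 4.0.16 (R 4.3.3, TMM, quasi-likelihood), group only, and DESeq2 1.42.0 as an alternative. Fuzziness was tested with limma 3.58.1 on promoters with at least 5 nucleosomes per library. Both were adjusted by Benjamini-Hochberg, called under 0.05 and tested on simulated data. Percentiles are among all promoters tested. A nucleosome position joins dyads of different libraries within 73 bp of their mean. Distances and motifs were computed with Python 3.11.15. All 8 genes are named throughout. Of each pathway list the genes past the threshold and otherwise the highest and lowest were named, and those under an unadjusted 0.05 were added after their values were seen. For each gene the promoter with the most similar profile was named. Alternatives were other windows, the upstream TSS, scaling, filters, GC offset, replicate block and leaving out each library. The genes and lists were chosen with earlier results of these data known. Library totals outside called nucleosomes, and all other data of the study, were not used here. One promoter sequence is not reported here.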

Additional observations from a re-analysis of the deposited data

How the results depend on the processing

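For 22 results, 238 alternative values were computed, of which 193 stayed on the same side or within the spread, 24 moved by more and 21 reversed. No receptor gene was called under any alternative run. The reversals are sign changes of log2 changes and of the fuzziness difference of NTRK3, none of which passed the threshold. With the window of 500 bp on each side they were 0.16 in NTRK3, 0.22 in RET and 0.19 in GFRA2, the median of the 8 was 0.15, and GFRA3 was at -0.44 (unadjusted p 0.0579 in edgeR). The window of 2 kb on each side gave 0.0124 in NTRK3 and -0.0054 in NGFR. The window of the free region gave 0.35 in SORT1, -0.63 in GFRA2, -0.56 in GFRA3 and a median of -0.22 over the 4 genes with enough reads there. The most upstream TSS gave -0.0201 in NTRK2, -0.0244 in GFRA1 and 0.15 in GFRA2, and the GC offset 0.0041 in NTRK3. Leaving out each library gave -0.12 to 0.0813 in NTRK3, -0.10 to 0.11 in NGFR, -0.0638 to 0.22 in GFRA1, -0.16 to 0.0422 in GFRA2 and -0.32 to 0.0135 in GFRA3. It gave 0.14 to 0.34 in NTRK2, -0.29 to -0.087 in SORT1 (lowest without ctrl 2, nearest to 0 without ctrl 1) and -0.21 to -0.0523 in RET (lowest without ctrl 1, nearest to 0 without ctrl 2), all with their sign kept. It gave 0 to 1 called promoters, the 1 without knockdown replicate 2.

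Same-numbered libraries deviated together, with r 0.294 across 20106 promoters. There are 2 such pairs, and the labels give them only a number in common. They were also alike in depth, with a median of 12 reads per nucleosome in both replicate 1 libraries and 18 in both replicate 2 libraries. The part of depth in this r was not tested. The replicate block gave 0 called promoters, with 1175 (5.84%) at an unadjusted p under 0.05 in edgeR. With the GC offset as well, NTRK3 was at 0.0027, and NTRK2 at 0.25 had an unadjusted p of 0.0396 (adjusted 0.916 in edgeR). In that fit 1067 of 20106 promoters (5.31%) had an unadjusted p under 0.05 in edgeR. As means of same-numbered pairs, the replicate block gave 1 window filled and 2 freed, and for fuzziness 7 called promoters in limma.

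Windows freed numbered 0 with the 50% limit, with the dyad rule and with the most upstream TSS. Under that last setting 2 genes, RET and GFRA2, were free in all 4 libraries. Leaving out each library gave 0 to 1 windows filled (NGFR without control replicate 2) and 1 to 2 freed (GFRA1 added without knockdown replicate 2). Fuzziness calls were 0 with unweighted means, with at least 10 reads and within 500 bp, where NTRK3 was at -2.07 bp and RET could not be fitted, and 0 to 4 with a library left out (4 without control replicate 2). Leaving out a library gave -1.40 to 0.566 bp for the median and -0.283 to 1.79 bp for NTRK3. Pairing under 74 bp gave a difference of 2.36 percentage points, and the minimum scaled to depth gave 0.778, against -0.162 over all promoters. The median difference in widest distance was 1.0 bp, and -42.25 to 49.0 bp with a library left out. The causes were not tested. Nucleosomes of 6 to 20 reads limit what single windows can show.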

Other observations

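Annotated starts differed among the receptor genes. NTRK2 had 58 transcripts, with 20 different start positions within 2 kb of the canonical TSS, and GFRA1 had 10 such starts. NGFR, SORT1 and GFRA3 had 2 each. The most upstream start of GFRA2 lies 23482 bp and that of GFRA1 3597 bp upstream of the canonical one, so the window that was scored is 1 of several possible starts in these genes.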
